A study of Mus musculus with 6 samples.

Results

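Dtna, which encodes alpha-dystrobrevin, and 8 genes for its partners in the dystrophin complex were followed in sorted DN3 thymocytes, the immature T-cell stage at which the T-cell receptor beta chain is tested. The partners were Dtnb, Dmd, Utrn, Dag1, Sntb1, Sntb2, Sgcb and Sgce. Every probe whose design name equalled 1 of these symbols, or an older symbol of the gene, was taken whatever its signal, which gave 25 probes of 45281 on the array and 9 genes of 28888. The set was chosen by the intensity of Dtna in miR-185 Tg against WT arrays, which was already known, and by the known binding partners of its protein. Dtna had 5 of the probes, and no probe was matched through an older symbol. A probe was counted as detected on an array when its detection p, the chance of so bright a signal among the negative control beads, was under 0.05. Of the 25 probes, 14 probes of 6 genes were detected on at least 3 of the 6 arrays and so entered the test, among 18597 probes and 12426 genes in all.

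The tested samples were 3 miR-185 Tg samples (Tg), from mice that carry a transgene for the microRNA miR-185, and they were set against 3 wild type samples (WT). Strain C57BL/6 is named for both groups, and both were sorted in the same way as thymocytes that were positive for CD25 and lacked CD44, CD4, CD8 and the markers of B cells, NK cells, gamma delta T cells and myeloid cells. The promoter that drives the transgene, the number of transgenic lines and the age of the mice are not given in the sources used here. Nor is it stated that the 3 samples of a group came from separate mice, so the spread behind each p-value is that of these samples alone and may be technical. The 6 arrays were on 1 chip and detected 17879 to 18913 probes each, and the number of arrays limits the precision of every value. WT2 and WT3 correlated at r = 0.997 across the tested genes, while the other pairs within a group lay between 0.935 and 0.990.

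The dystrophin complex links the actin cytoskeleton to the extracellular matrix across the cell membrane and is best known from skeletal muscle. Dystrophin or its relative utrophin binds actin and the transmembrane protein dystroglycan, whose sugar chains bind laminin outside the cell. Dystrobrevins bind dystrophin or utrophin and recruit syntrophins, adaptor proteins that hold signalling molecules, and the sarcoglycans form a membrane subcomplex beside dystroglycan. A microRNA such as miR-185 pairs with its target mRNAs mainly through its seed and typically lowers their level or translation.

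The RefSeq entries for miR-185 (assembly GRCm38.p6, chr16:18327401-18327465, minus strand) are shown because this RNA is what separates the groups. They are written 5′ to 3′, and capitals in the 3p strand mark the seed, bases 2 to 8. The 3p strand lies at chr16:18327405-18327425, and the other arm of the hairpin gives mmu-miR-185-5p. The 5p strand had no entry of its own in the source used, so its seed is not marked. Which strand acts in these cells was not tested.
mmu-mir-185 hairpin: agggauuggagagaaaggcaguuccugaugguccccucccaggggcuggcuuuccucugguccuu
mmu-miR-185-3p: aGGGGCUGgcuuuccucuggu

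Dtna was detected by all 5 of its probes on all 3 Tg arrays and by none of them on any WT array. The gene was singled out for its higher signal in this same contrast, so its values are a description and no test is given. The brightest probe read 2355.8, 2046.4 and 1257.1 intensity units in Tg1, Tg2 and Tg3, against 109.4, 99.7 and 101.9 in WT1, WT2 and WT3. The standard error between beads was 55 to 80.3 units on the Tg arrays and 2.38 to 3.87 units on the WT arrays. The groups did not overlap, and the WT arrays sat at the level of the background. After background correction and quantile normalisation, the mean level was 10.77 ± 0.31 in Tg and 4.36 ± 0.05 in WT (log2, SD, n = 3 each). With the WT arrays at the lowest detected signal, Dtna was at least 68.4-fold higher in Tg.

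The other 4 Dtna probes showed the same separation at lower brightness. The second probe read 1156.5, 855.6 and 469 units in Tg1, Tg2 and Tg3, against 99.2, 96.5 and 102.4 units in the WT arrays, which put Tg at least 27.0-fold higher. Another probe read 344, 198.4 and 224.6 units in Tg, against 103.3, 96.5 and 100.8 units in WT, at least 6.37-fold higher. Across all of them, every Tg array exceeded every WT array and Tg1 was the brightest. The next probe read 317.8, 170.6 and 175.6 units in Tg and 105.2, 102.3 and 96.2 units in WT, at least 4.82-fold higher. The dimmest read 288.8, 155.4 and 123.2 units in Tg and 106.7, 100.6 and 101.9 units in WT, at least 3.22-fold higher. WT arrays sat at the same floor at all 5 probes, so these lower bounds follow the brightness of the probe in Tg.

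The 5 probes did not scale together across the 3 Tg arrays. With the WT mean of the probe subtracted, the signal in Tg2 was 86.3% of that in Tg1 at the brightest probe, 71.5% at the second, 40.3% and 32.0% at the next 2 and 28.2% at the dimmest. In Tg3 the same shares were 51.2%, 35.0%, 51.0%, 34.3% and 10.8%. Tg2 was therefore above Tg3 at 3 probes and below it at the 2 probes between the second and the dimmest. Which Dtna transcripts the probes read was not analysed here. Over the 6 arrays, the other probes correlated with the brightest at r = 0.998, 0.985, 0.970 and 0.891, a description that mainly reflects the gap between the groups.

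**Figure D1:**
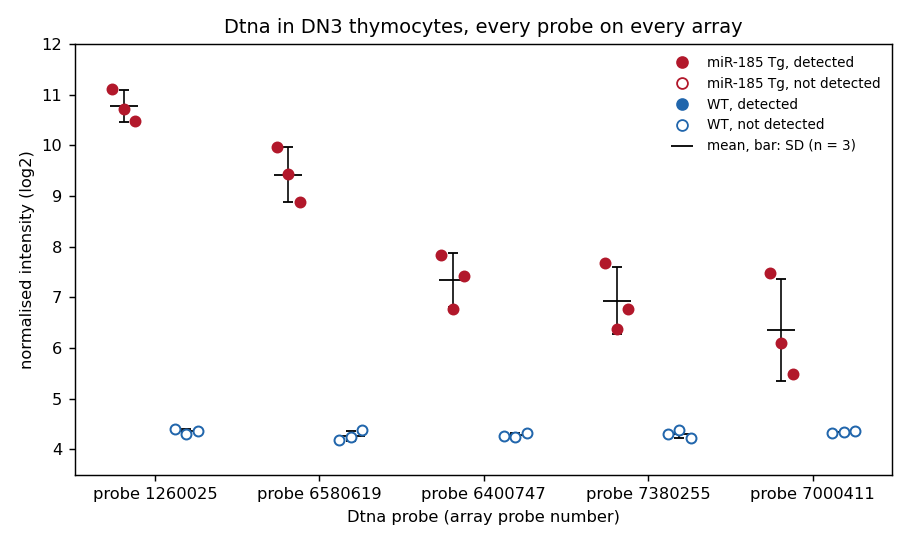
Normalised intensity (log2) of the 5 Dtna probes, with 1 point per array, filled where detected. Black marks give the mean with SD of the 3 miR-185 Tg and the 3 WT arrays. All Tg points lie above all WT points at every probe. The brightest probe spans 10.49 to 11.11 in Tg against 4.31 to 4.41 in WT.

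Among the 8 partners, 3 had a probe detected on all 6 arrays, and 3 had no probe detected on any array. Utrn and Sntb2 were dim, and no single probe of either was detected on all 6 arrays. Of the 5 that entered the test, 4 did not pass, and Utrn passed after entering it through its Tg arrays. Over the whole table, 4.23% of the 12426 genes had a limma p under 0.05 after Benjamini-Hochberg adjustment, the rule for a call, and 2.55% were called higher and 1.68% lower in Tg. The partners' count is not read against that background, since 5 were tested and the entry of Utrn depended on the group in which it was higher. The groups did not overlap for 2 of the 5, Dtnb and Utrn, beside 28.2% of all genes tested. In sorted bulk cells, fewer cells that express a gene and less RNA per cell cannot be told apart.

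Dtnb, which encodes beta-dystrobrevin, the paralogue of alpha-dystrobrevin found in many non-muscle tissues, was detected on all 6 arrays. Its brightest probe read 383.9, 480.5 and 307.1 units in Tg, against 375.4, 296.2 and 275.9 units in WT. On the log2 scale, the level was 8.05, 8.52 and 8.07 in Tg1, Tg2 and Tg3, and 8.04, 7.78 and 7.64 in WT1, WT2 and WT3, so the lowest Tg array and the highest WT array all but touched. The means were 8.21 ± 0.27 in Tg and 7.82 ± 0.20 in WT, a difference of 0.39 ± 0.24 (SE) with a 95% interval of -0.16 to 0.94 (limma adjusted p = 0.42). Thus a transcript of the dystrobrevin family was present in WT DN3 cells, where no Dtna probe was detected. A second Dtnb probe was detected on 2 arrays of each group and its groups overlapped, at 156.5, 108.4 and 250 units in Tg and 138.2, 110 and 109.6 units in WT. The remaining Dtnb probe was detected on no array.

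Dmd, the gene of dystrophin itself, was read by 3 probes, and none was detected on any array. Their intensities were 93 to 104.6 units in Tg and 94 to 107.1 units in WT, the range of undetected probes. No level or fold is given for Dmd, and transcripts that these 3 probes do not cover cannot be judged.

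Utrn, whose product utrophin takes the place of dystrophin in many tissues outside muscle, was higher in Tg at its brightest probe. That probe read 138.2, 134.6 and 137.7 units in Tg1, Tg2 and Tg3, against 123.1, 108 and 102.8 units in WT1, WT2 and WT3. All 3 Tg arrays and WT1 were detected, so Utrn passed the detection filter through its Tg arrays, which tilts the test towards a difference. The normalised level was 5.57, 5.60 and 5.97 in Tg and 4.97, 4.63 and 4.40 in WT (log2), with no overlap. The means were 5.71 ± 0.22 in Tg and 4.67 ± 0.29 in WT, a difference of 1.05 ± 0.20 (SE) with a 95% interval of 0.58 to 1.52, or 2.07-fold (limma adjusted p = 0.0349). Without the filter the adjusted p was 0.087, so the p is given as a value and not read as support.

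The Utrn probe was dim. Its difference kept about the same size with arrays left out while the limma adjusted p missed the threshold, at 1.12 without Tg1 (adjusted p = 0.092), 1.20 without WT1 (0.08), 1.03 without WT2 (0.15) and 0.91 without WT3 (0.19). Without background correction the difference was 0.29 (log2). The authors' gene-averaged values, which pool all probes of the gene, were quantile normalised here. In them the log2 difference was 0.072 (limma adjusted p = 0.22). Among the other 4 Utrn probes, 1 was detected on Tg1 and Tg3 and on no WT array, at 121.8, 105.4 and 106 units in Tg and 109.9, 99.4 and 96.6 units in WT. A further probe was detected on Tg3 alone and 2 on no array. Probes at the background cannot show whether they share the difference. Hbb-b1, a red cell gene, was at 9.58, 10.21 and 9.40 in Tg and at 8.0, 12.40 and 13.12 in WT (log2), and the 4 red cell markers on the array summed to 26.31 to 28.61 in Tg, with 2 detected per array, and to 23.77 to 35.77 in WT, with 2 to 3 detected. Among the WT arrays, Utrn was highest in WT1, where Hbb-b1 was lowest, and the part of red cell RNA in the Utrn difference was not tested.

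Dag1, the gene of dystroglycan, was detected by both of its probes on all 6 arrays. The brighter probe read 322.1, 365.1 and 248.7 units in Tg, against 342.1, 376.3 and 355.7 units in WT. The groups overlapped, and Tg3 was the lowest array. Means were 7.79 ± 0.21 in Tg and 8.09 ± 0.21 in WT (log2), a difference of -0.30 ± 0.23 (SE) with a 95% interval of -0.84 to 0.23 (limma adjusted p = 0.528). At the second Dag1 probe the difference was -0.23 (log2).

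The syntrophins were at or near the background. Sntb1, encoding beta-1-syntrophin, was detected on no array, at 100.4, 104.4 and 102.2 units in Tg and 107.7, 103.2 and 102.7 units in WT. Sntb2, encoding beta-2-syntrophin, was detected by at least 1 of its 3 probes on every array of both groups, and its representative probe was detected on Tg3, WT2 and WT3 only. That probe read 110.1, 112.6 and 105.9 units in Tg and 108.6, 115.7 and 117.3 units in WT. Its difference was -0.18 ± 0.20 (log2, SE) with a 95% interval of -0.63 to 0.28 (limma adjusted p = 0.672). Another probe was detected on all 3 Tg arrays and on WT1, and the last on Tg3 alone. The difference at the representative probe turned to 0.22 without WT2 and to 0.13 without WT3. Its 2 high WT arrays, at 5.02 and 5.07 against 4.39 in WT1 (log2), were the 2 with high Hbb-b1, and that link was not tested.

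Sgcb, encoding beta-sarcoglycan, was detected by both of its probes. Its brighter probe read 296.4, 189.2 and 191.1 units in Tg, against 182.6, 190.8 and 188.8 units in WT. Tg1 stood apart from the other arrays, Tg2 lay within the WT range, and the groups overlapped. Means were 7.06 ± 0.44 in Tg and 6.66 ± 0.20 in WT (log2), a difference of 0.40 ± 0.28 (SE) with a 95% interval of -0.25 to 1.06 (limma adjusted p = 0.492). It was 0.17 without Tg1 and 0.61 without Tg2. Sgce, encoding epsilon-sarcoglycan, the form that replaces alpha-sarcoglycan outside striated muscle, was detected on no array, at 104.8, 100.6 and 97.6 units in Tg and 106.4, 95 and 93.7 units in WT.

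**Figure D2:**
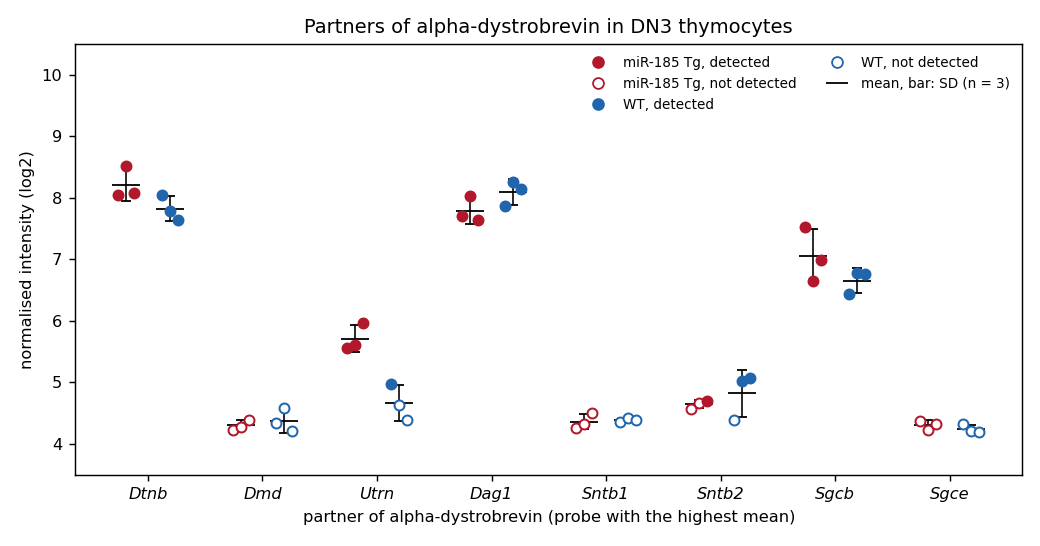
Normalised intensity (log2) of the probe with the highest mean of each of the 8 partners, with 1 point per array, filled where detected, and the mean with SD of the 3 miR-185 Tg and the 3 WT arrays. Dtnb, Dag1 and Sgcb are detected on all arrays, Dmd, Sntb1 and Sgce on none, and Utrn lies at 5.57 to 5.97 in Tg against 4.40 to 4.97 in WT.

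Start-site sequences of 5 members were found in RefSeq, as 10 windows of 300 bases that run from 250 bases before to 50 bases after an annotated start. Across all 32851 such mouse windows the median number of CG pairs was 7, with quartiles of 3 and 20. Windows of the detected genes had 45, 47, 42 and 26 CG pairs (Dtnb), 47 and 30 (Dag1) and 24 (Sgcb). Those of Dmd, detected on no array, had 2 and 14, and the Utrn window had 2. Below, 1 window each of a detected, a dim and an undetected partner is written 5′ to 3′ on the strand of the gene, with each CG, which reads CG on both strands, in capitals. For Dtnb it is the window with the most CG pairs and for Dmd the one with the fewest, so that choice widens the contrast between them. The windows are chr12:3572161-3572460 (plus strand, Dtnb), chr10:12861686-12861985 (minus strand, Utrn) and chrX:82948620-82948919 (plus strand, Dmd) in GRCm38.p6. As many CG pairs or more were held by 1.44% of all windows for the first and by 85.9% for each of the others. Other starts of these genes can differ, as the second Dmd window with 14 does. Neither the match of these starts to the probes nor their use as promoters in these cells was tested.
Dtnb: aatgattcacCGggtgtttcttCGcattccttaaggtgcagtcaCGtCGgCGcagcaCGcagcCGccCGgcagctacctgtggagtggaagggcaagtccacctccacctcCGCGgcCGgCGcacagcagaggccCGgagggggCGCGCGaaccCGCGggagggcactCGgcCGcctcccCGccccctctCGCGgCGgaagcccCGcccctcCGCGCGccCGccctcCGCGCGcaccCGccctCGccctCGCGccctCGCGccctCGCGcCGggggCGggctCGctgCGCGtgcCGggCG
Utrn: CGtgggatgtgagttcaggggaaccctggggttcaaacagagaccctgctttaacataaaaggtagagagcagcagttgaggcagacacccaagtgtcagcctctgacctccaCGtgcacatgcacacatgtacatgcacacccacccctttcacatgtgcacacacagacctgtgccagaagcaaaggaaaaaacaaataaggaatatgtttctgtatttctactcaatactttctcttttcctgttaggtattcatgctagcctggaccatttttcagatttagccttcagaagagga
Dmd: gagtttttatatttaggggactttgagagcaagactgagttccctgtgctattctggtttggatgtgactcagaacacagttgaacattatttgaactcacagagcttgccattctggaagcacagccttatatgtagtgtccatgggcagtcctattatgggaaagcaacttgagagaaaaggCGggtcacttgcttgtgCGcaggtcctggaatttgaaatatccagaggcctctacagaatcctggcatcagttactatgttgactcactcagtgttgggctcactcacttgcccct

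The wider set of genes around the complex was listed by role: 68 genes, of which 67 were on the array and 43 were tested. 1 of the 43 rose, 3 fell and 39 did not pass, which is 9.30% called beside 4.23% of all genes, with a median log2 difference of 0.11, against -0.0014 over all genes tested, and 25 positive and 18 negative. Without Tg1, WT1, WT2 or WT3, 0 of the 43 passed, and 8 passed without Tg2. The differences of the 4 called genes kept their size with each array left out, at 1.40 to 1.83 for Pomgnt2, -1.46 to -1.26 for Lamc1, -1.40 to -1.09 for Vcl and -0.92 to -0.82 for Actn4 (log2). The whole table moved likewise, with 49 genes called without Tg1, 1 without WT1, 47 without WT2, 2 without WT3 and 1707 without Tg2.

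Core components other than the members were almost all undetected. Sntg1 and Sntg2 of the syntrophins, Sgca, Sgcd and Sgcz of the sarcoglycans, and Sspn, which encodes sarcospan, had no probe detected on any array. Only Drp2, a dystrophin relative, was tested among these 9, and its difference was 0.11 (log2, limma adjusted p = 0.771).

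Genes for binding proteins of dystrobrevins, dystrophin and syntrophins were mostly measurable: 16 of 23 were tested. Of the 16, 2 fell, 7 differences were positive and 9 negative, and the median was -0.05 (log2). Vcl, encoding vinculin, which links actin to adhesion sites, read 163.8, 160.2 and 173.1 units in Tg, against 292.1, 256.1 and 274.1 units in WT, with no overlap. It fell by 1.21 ± 0.25 (log2, SE, limma adjusted p = 0.0386). Actn4, encoding the actin cross-linker alpha-actinin 4, read 897.3, 950.7 and 623.7 units in Tg, against 1537.9, 1302.2 and 1420.8 units in WT. It fell by 0.88 ± 0.16 (log2, SE, limma adjusted p = 0.0296), and its 2 dimmer probes were also lower on every Tg array than on any WT array. Both lost the call under other settings, with limma adjusted p-values of 0.14 for Actn4 and 0.050 for Vcl with median scaling, 0.15 and 0.052 without normalization, 0.065 and 0.059 without the filter and 0.11 and 0.096 with the replicate block. Both are general cytoskeletal genes whose products act outside the complex too. Actn2, the gene of alpha-actinin 2, went the other way and was named after its values were seen. It was higher in Tg by 0.97 ± 0.24 (log2, SE), with no overlap, and did not pass (limma adjusted p = 0.067).

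Of 11 genes for dystroglycan ligands, 3 were tested. Lamc1, encoding the laminin gamma-1 chain, read 120.4, 113 and 111.6 units in Tg, against 174.4, 154.4 and 166.2 units in WT. It fell by 1.40 ± 0.18 (log2, SE, limma adjusted p = 0.0106), with no overlap. Agrn, encoding agrin, had a difference of 0.71 ± 0.24 (log2, SE) that did not pass (limma adjusted p = 0.15).

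Enzymes that build the laminin-binding sugar of dystroglycan were well represented, with 16 of the 17 on the array tested, 1 higher and a median difference of 0.17 (log2). Pomgnt2, which adds a GlcNAc to O-mannose on dystroglycan, read 2483.4, 4383.4 and 1618 units in Tg, against 773.6, 964.4 and 904.9 units in WT, with no overlap and the highest value in Tg2. It rose by 1.64 ± 0.26 (log2, SE), or 3.11-fold (limma adjusted p = 0.0196). Its second probe separated the groups as well, while the dimmest overlapped, at 651.4, 1004 and 207.2 units in Tg and 186.4, 293.6 and 272.7 units in WT.

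BLOC-1 is the complex in which the dystrobrevin-binding protein dysbindin works in endosomal sorting. The gene of dysbindin itself was counted among the binding proteins above. All 7 listed genes for its partners in BLOC-1 were tested, and none passed. The median difference was 0.37 (log2) with 6 positive, and 2 of the 7 had an unadjusted p under 0.05, beside 20% of all genes tested. These were Bloc1s1 at 0.75 ± 0.21 (SE, limma adjusted p = 0.0973) and Bloc1s6 at 0.51 ± 0.21 (SE, limma adjusted p = 0.222).

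**Figure D3:**
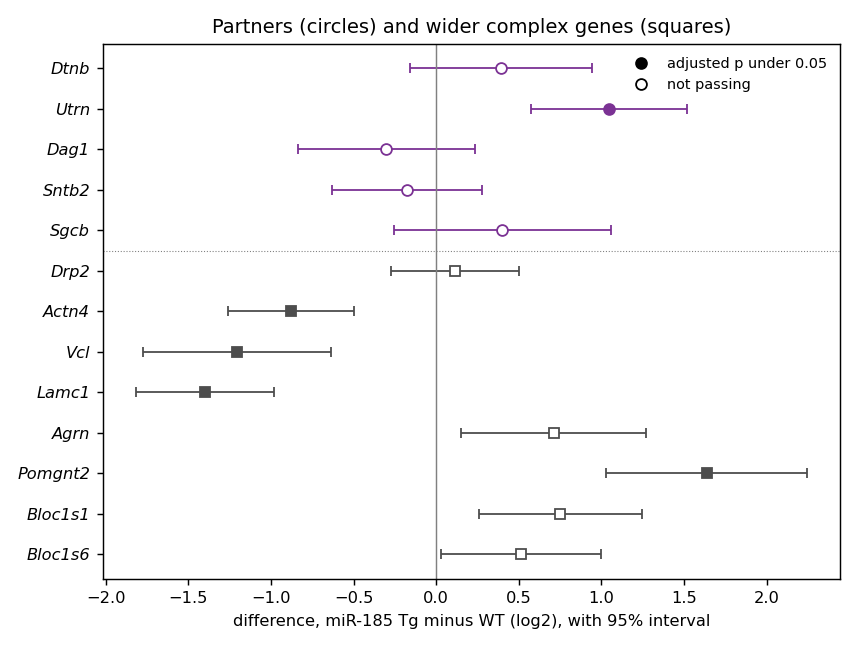
Log2 difference, miR-185 Tg minus WT, with its 95% interval for the 5 tested partners (circles) and 8 named genes of the wider list (squares), filled where the adjusted p was under 0.05. Utrn (1.05) and Pomgnt2 (1.64) lie to the right, and Lamc1 (-1.40), Vcl (-1.21) and Actn4 (-0.88) lie to the left of 0.

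The genes that flank Dtna were examined for a shift in the same direction, over the 8 protein-coding genes on either side in RefSeq order. Of these 16 genes, 15 were on the array, 7 were tested and none was called, with 1 at an unadjusted p under 0.05, the level that 20% of all genes tested reached. The median difference was -0.25 (log2), with 1 positive and 6 negative. Mapre2, a gene for a microtubule-binding protein and the next gene on one side, was at 8.11 ± 0.38 in Tg and 7.92 ± 0.10 in WT (log2, SD, n = 3 each), a difference of 0.18 with a 95% interval of -0.40 to 0.77 (limma adjusted p = 0.744). Nol4 on the other side was detected by none of its 3 probes and Asxl3, beyond it, by none of its 4. Zfp24 was the gene with the unadjusted p under 0.05, at -0.79 with an interval of -1.38 to -0.20 (limma adjusted p = 0.132). Zfp397 (-0.77), Zfp35 (-0.25), Ino80c (-0.15), Galnt1 (-0.35) and Rnf138 (-0.07) did not pass. Without Tg2, Zfp397 was at -0.12 and Ino80c at -0.0058, and without Tg1 Zfp397 was at -1.23. Of the 8 neighbours on the array without a test, namely Mep1b, Garem1, Klhl14, 4930426D05Rik, Ccdc178, Asxl3, Nol4 and Zscan30, 6 had no probe detected on any array.

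**Figure D4:**
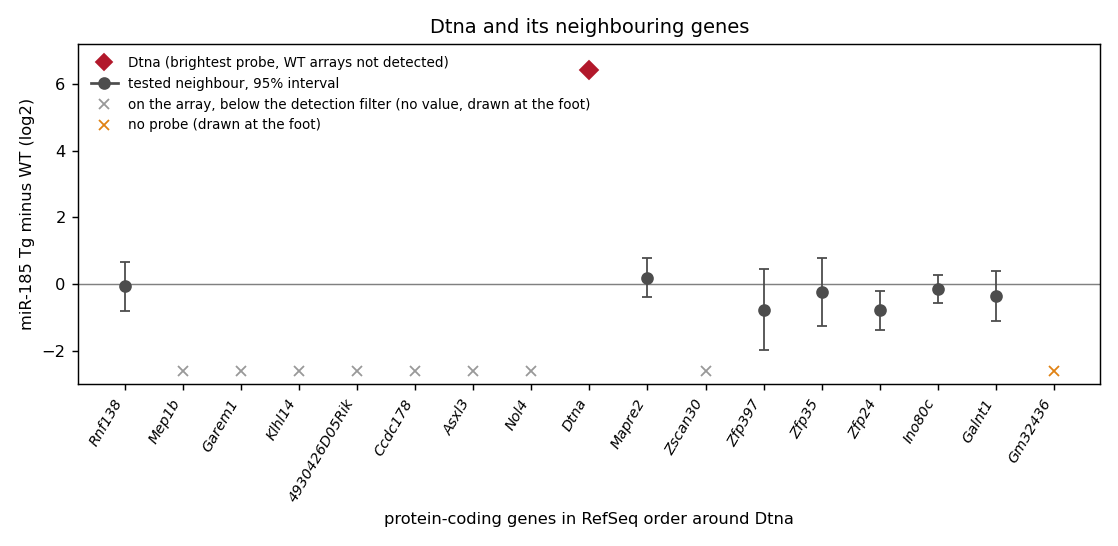
Log2 difference, miR-185 Tg minus WT, of Dtna and the 16 protein-coding genes around it in RefSeq order, with 95% intervals for the tested neighbours and crosses at the foot for genes with no value. Dtna is drawn at its measured 6.41, against WT arrays on which it was not detected (at least 68.4-fold higher in Tg), and the 7 tested neighbours lie between -0.79 and 0.18.

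Detection on all 3 Tg arrays with no probe of the gene detected on a WT array was seen for 96 genes, 0.773% of those tested, and Dtna had the highest Tg mean of the 96. The next 5 by Tg mean were Gm4951 (at least 17.7-fold higher in Tg), B4galnt2, a glycosyltransferase gene (at least 8.31-fold), BC029169 (at least 4.37-fold), 9330175E14Rik (at least 3.04-fold) and LOC435565 (at least 2.87-fold). Their Tg arrays were not ordered alike: Gm4951 was at 9.64, 7.16 and 9.65 in Tg1, Tg2 and Tg3 (log2), where Dtna was at 11.11, 10.71 and 10.49. Of the 96 genes, 61 had 1 probe on the array, and all probes showed the pattern in only 2 of the other 35. Those were Dtna with 5 probes and Tenm4 with 2 (at least 1.67-fold), the second named after its values were seen. Dtna was chosen for its higher signal in Tg, so its rank and its place among these genes are a description.

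By Pearson r with the brightest Dtna probe over the 6 arrays, the 5 most similar named genes were Blk, Zfp788, Lynx1, Pex11g and Rnf103, at r = 0.999, 0.998, 0.997, 0.997 and 0.996. With 2 groups of 3 arrays, such values describe mainly the gap between the groups and how tight each group is. Blk, a Src-family kinase gene, was at 9.54 ± 0.09 in Tg and 7.75 ± 0.09 in WT (log2, SD, n = 3 each), and the Zfp788 probe, detected on no WT array, was at 6.13 ± 0.10 in Tg and 4.35 ± 0.08 in WT. The size of the difference varied widely, as Rnf103 was only 0.48 higher (log2). Among the partners, the brightest Utrn probe had r = 0.917 with Dtna. Within Tg, however, that probe was lowest in Tg1 and highest in Tg3, the reverse of Dtna. The other Utrn probes, at or near background, had r = 0.693, -0.82, -0.061 and -0.275. For the representative probes of the other tested partners, r was 0.708 (Dtnb), 0.609 (Sgcb), -0.386 (Sntb2) and -0.666 (Dag1).

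Markers of the labelled cell type were detected in both groups, and most defining markers of muscle and glia were not. All 11 DN3 markers, among them Il2ra, Ptcra and Rag1, were detected on every array. Their summed log2 levels were 124.17 to 124.92 in Tg and 116.87 to 119.01 in WT. Of the 11, 3 were called higher in Tg, beside 2.55% of all genes tested: Il2ra (2.9-fold), Cd3g (1.65-fold) and Dtx1 (5.8-fold). These 3 stage markers thus differed between the groups, and the part of their difference in the Dtna values was not tested. Rag1 (-0.64), Rag2 (-0.26) and Bcl11b (-0.13) had negative log2 differences that did not pass. The other DN3 markers had positive differences that did not pass. Cd8a was detected on no array, and Cd4 on Tg1 and WT3. Of 11 muscle markers, 8, including Ckm, Acta1 and Myh11, were detected on no array, and their sum was 47.99 to 48.61 in Tg and 48.09 to 48.24 in WT. Des and Myog were each detected on Tg3 alone, and Acta2 on Tg1 and all 3 WT arrays. Of 8 glial and neuronal markers, Gfap, S100b and Snap25 were among those detected on no array, and the sum was 41.65 to 42.57 in Tg and 41.51 to 42.53 in WT. The 6 fibroblast markers summed to 29.06 to 29.32 in Tg and 27.81 to 28.44 in WT, with 1 to 2 detected per array and Col1a1, Col3a1 and Dcn on none. Pdgfrb was detected on all 6 arrays, at 6.92 ± 0.32 in Tg and 6.18 ± 0.06 in WT (log2, SD, n = 3 each) with no overlap, Pdgfra was detected on Tg2 and Tg3, and Col1a2 on WT1 and WT2. The part of that difference in the Dtna values was not tested. For thymic epithelium, 1 to 2 of 7 markers were detected per array, and for endothelium 1 to 3 of 5. Of 6 myeloid markers, 1 to 2 were detected per Tg array and 3 per WT array. Lyz2 was at 8.10 ± 0.61 in Tg and 6.65 ± 0.78 in WT, while S100a8 was detected on no Tg array and on all 3 WT arrays (log2, SD, n = 3 each).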

How the data were processed

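RNA of 6 sorted samples was hybridised to Illumina MouseWG-6 arrays. Per the file headers, GenomeStudio 1.9.0 wrote the deposited probe intensity with no normalization, a detection score (a fraction, read as 1 minus the detection p) and the count of beads. The authors' deposited series values match the log2 of a deposited gene-averaged intensity table (column medians 6.65 to 6.78, so not scaled between arrays). No source used here says whether background was subtracted. Intensities were corrected with normexp from detection p-values (offset 16) and quantile normalised, and genes with a probe detected at p under 0.05 on at least 3 of 6 arrays were tested with limma 3.58.1 in R 4.3.3 (lmFit, eBayes with trend, two-sided, Benjamini-Hochberg over 12426 genes). The kept probe with the highest mean represented a gene. The log2 scale understates changes of dim genes. "At least" folds set the Tg mean against the higher of the WT signal and the lowest detected signal, averaged over arrays. The fit was tested on simulated data.

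Of 30774 design names, 15991 are current symbols in the RefSeq table of GRCm38.p6, 5826 were updated through a single synonym and 8957 were kept. Members, lists and the named genes were chosen with earlier results of these data known. The rule named all members, all called genes of the wider list, otherwise up to 2 per role by unadjusted p, the 8 neighbours on each side, and the 5 genes most like Dtna by r and by detection. No sequence of Dtna is reported here, and some listed genes are left out. Alternatives covered background correction, offset, normalization, the authors' values, filter, variance model, array weights, replicate block, probe rule, threshold, each array left out, and WT2 and WT3 averaged. For that alternative, the authors' values were quantile normalised, limited to genes that passed the filter and averaged per gene before the fit.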

Additional observations from a re-analysis of the deposited data

How the results depend on the processing

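The Dtna difference, whose direction was fixed by the choice of the gene, was measured as 6.41 (log2) against WT arrays at background. It was 3.95 without background correction, 5.03 with an offset of 50 and 3.85 with the mean of its probes. With the authors' gene-averaged values, quantile normalised here, it was 2.10. It was 6.24 to 6.55 with each array left out. Requiring detection on all 6 arrays gave no value for Dtna or Utrn. The number of members past the threshold was 2, Utrn and, by the way it was chosen, Dtna. It was 1 with the authors' values, 1 without a filter, 0 with detection on all 6 arrays, 5 with array weights, 1 with WT2 and WT3 averaged, and 1 to 2 with each array left out. With the replicate block it was 1. Utrn lost its call in 8 of 22 alternatives, over log2 differences of 0.072 to 1.20 and adjusted p of 0.00033 to 0.22. Same-numbered samples deviated together at r = -0.252, 0.109 and -0.217, so the numbers were not taken as pairs, and under the block 2 genes of the wider list and 264 of the whole table were called.

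Of the wider list, 4 genes were called. That count was 2 with median scaling, 2 without normalization, 2 without a filter, 16 with array weights, 0 with WT2 and WT3 averaged, and 0 to 8 with each array left out. No neighbour was called except 1 (Zfp24) with array weights, and 0 to 0 with each array left out. In the whole table, 526 genes were called, against 310 with median scaling, 302 without normalization, 312 without a filter, 4472 with array weights, 36 with WT2 and WT3 averaged, 1049 at an adjusted p under 0.1, and 1 to 1707 with each array left out. The cause of these shifts was not tested. Fits with arrays left out or averaged also held fewer samples, and the part of that in the shifts was not tested either.

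Uncalled differences turned sign for Sntb2 (0.033 with the authors' values, 0.034 with the mean of probes, 0.22 without WT2, 0.13 without WT3, 0.17 with both averaged), Rnf138 (0.0053, 0.038 and, without Tg3, 0.20), Galnt1 (0.034 without Tg2), Mapre2 (-0.019 without Tg2), Zfp35 (0.040 with array weights, 0.27 without Tg2) and Zfp397 (0.0057 with array weights, -1.23 to -0.12 with each array left out). With each array left out, these ran from -0.40 to 0.22 for Sntb2, -0.40 to 0.20 for Rnf138, -0.55 to 0.034 for Galnt1, -0.019 to 0.36 for Mapre2 and -0.65 to 0.27 for Zfp35. Of 700 recomputed values of 31 genes, 590 kept direction and side of the threshold, 85 lost the call, 12 gained it and 13 reversed. Probes near background, such as those of Utrn and Sntb2, have the least signal to measure.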
